A study of Mus musculus with 3 samples.

Results

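Skeletal muscle progenitors were picked out of dissociated mouse dorsal skin by their transcripts. A barcode was counted as a member when it carried at least 1 unique molecular identifier (UMI, a tag that marks 1 captured transcript) for 2 or more of the 6 genes Pax7, Myod1, Myf5, Cdh15, Myog and Chrna1, and no UMI of the leukocyte gene Ptprc. Of 26143 barcodes that passed the filters, 242 were members. The 3 libraries came from C57BL/6 mice with no further genotype or treatment named, 1 each from neonatal, 3-week-old and 2-month-old skin, cut up, treated with the enzymes collagenase D and DNase1, and sequenced from transcript 3' ends in droplets. They held 81 members of 7911 barcodes in the neonatal library, 105 of 8900 at 3 weeks and 56 of 9332 at 2 months. How many animals went into each library is not stated. Each age had a single library, so no difference has a replicate check and none was tested. Intervals are 95% intervals that cover counting error only, by the Clopper-Pearson method for shares and from exact Poisson limits for levels and their ratios. The members were selected on detection of the 6 genes, whose values are therefore given as a description. Members were then split into Myog-positive cells and cells with Pax7 and without Myog.

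Skeletal muscle in the dorsal skin of mice is a thin sheet beneath the dermis, the panniculus carnosus. Its resident stem cells, the satellite cells, are marked by the transcription factor Pax7. When activated they switch on the basic helix-loop-helix (bHLH) factors Myf5 and Myod1, divide as myoblasts, then express Myog (myogenin), leave the cell cycle and fuse into multinucleate fibres. Mature fibres are too large for a droplet, so single-cell libraries hold mainly the mononuclear stages of this sequence.

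The deposited matrices held 84086755, 113874172 and 98432611 UMIs on 8452, 10226 and 10190 barcodes for the neonatal, 3-week and 2-month libraries. Members had medians of 8064, 9453 and 4228 UMIs, against 8703, 11156 and 8561.5 UMIs in the other barcodes kept, so the members at 2 months were the shallowest. The neonatal library held cells of both sexes, because 45 of its 81 members had a UMI of the female transcript Xist and none of the 4 Y-linked genes counted, while 24 had a Y-linked UMI and no Xist. Members of the other 2 libraries had 0 Xist UMIs and carried Y-linked UMIs. Age, sex make-up and library therefore cannot be told apart, and values without the neonatal cells that had Xist are given for the comparison of 3-week with neonatal members. No barcode of a member was shared between libraries.

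The label was checked on transcripts outside the rule. Each of the 242 members had a UMI of at least 1 of 9 other muscle genes (Des, Msc, Chodl, Fgfr4, Musk, Actc1, Acta1, Tnnt1 and Mylpf), and 230 had 2 or more. When all kept barcodes were clustered without the 6 rule genes, 233 members (96.3%) fell in 1 of 39 clusters, and members made up 76.6% of that cluster. The other barcodes of the cluster were 47 with 1 rule gene and 21 with none, and the 9 members outside it were spread over 8 clusters. Just inside the rule, 93.2% of neonatal barcodes with exactly 2 rule genes had 2 or more of the 9 muscle genes, against 16.5% of those with 1 rule gene. At 3 weeks the same shares were 95.7% and 20.6%, and at 2 months 85.7% and 16%.

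Some members carried transcripts of other skin cells. Endothelial and immune markers stood at 8 UMIs or fewer in the members of any library, with Tyrobp, Cd3g, Kdr and Cldn5 at 0 or 1 UMI throughout. The 7 Schwann cell markers had 5, 33 and 132 UMIs in neonatal, 3-week and 2-month members. At 2 months this was 370 CPM, against 1154 CPM in the other barcodes, and 125 of the UMIs lay in cells with Pax7 and without Myog. The 7 fibroblast markers (Pdgfra, Dcn, Lum, Dpt and 3 collagen genes) summed to 2661, 21249 and 22281 CPM (UMIs scaled to 1e6 per group of cells) in the members of the neonatal, 3-week and 2-month libraries, against 38169, 110046 and 95959 CPM in the other barcodes. This sum was concentrated in a few members: the medians per cell were 1013, 2101 and 1276 CPM, and the highest cells reached 47470, 213911 and 189441 CPM. Haemoglobin and other erythroid transcripts reached 207545 CPM in 1 member at 3 weeks. Of 6 keratinocyte markers, Krt14, Krt15 and Krt17 were at 0 in neonatal members, and Krt10, Krt1 and Krt5 had 23, 9 and 2 UMIs there. A UMI of this list was found in 32.1%, 60% and 46.4% of neonatal, 3-week and 2-month members, against 38.2%, 70.8% and 58.3% of the other barcodes, and 1 member at 2 months had 21200 CPM of the keratinocyte list. Where a gene below rests on such a cell, the share of its UMIs that 1 cell held is given.

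The share of members among the kept barcodes was 1.02% in the neonatal library, with an interval of 0.814 to 1.27%. It was 1.18% at 3 weeks, with 0.966 to 1.43%, and 0.600% at 2 months, with 0.454 to 0.779%. Because finding 2 transcripts depends on depth, every barcode was also thinned to 3000 UMIs and the rule applied again, which left out 294, 616 and 1627 shallower barcodes. The shares were then 0.486%, 0.917% and 0.506%, so the neonatal and 2-month libraries were alike within their intervals and the 3-week library was the highest. In a digest of whole skin a smaller share of muscle cells and a lower recovery of them cannot be told apart.

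Among the genes that chose the members, Cdh15, the muscle adhesion protein M-cadherin, was the most widely detected, with a UMI in 88.9%, 89.5% and 80.4% of neonatal, 3-week and 2-month members. Pax7 was found in 42.0%, 28.6% and 67.9% of them, and Myf5 in 33.3%, 35.2% and 58.9%. Both were thus most frequent at 2 months, although those members were the shallowest. Myod1, the factor that commits cells to the muscle lineage, was found in 34.6%, 73.3% and 30.4%. Chrna1, the alpha subunit of the muscle acetylcholine receptor, was also most frequent at 3 weeks, with 33.3%, 74.3% and 46.4%. Summed over members, Pax7 stood at 72.9, 43.2 and 227 CPM and Myod1 at 80.4, 277 and 98.2 CPM. In these counts of 3' ends, which do not grow with transcript length, Myog had the highest summed level of the 6 in each library, at 1158, 1726 and 937 CPM, and these values came from 28, 43 and 6 cells. As a background, barcodes with 3 or more UMIs of both Krt5 and Krt14 (keratinocytes, which should lack these genes) numbered 176, 1098 and 1115, with median depths of 15473.5, 12379.5 and 10581 UMIs. No rule gene was found in more than 0.364% of them. Chrna1 was found more often in all other kept barcodes, at 3.35%, 1.46% and 0.658% in the neonatal, 3-week and 2-month libraries. Each of the remaining rule genes was found in no more than 0.332% of those.

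**Figure D1:**
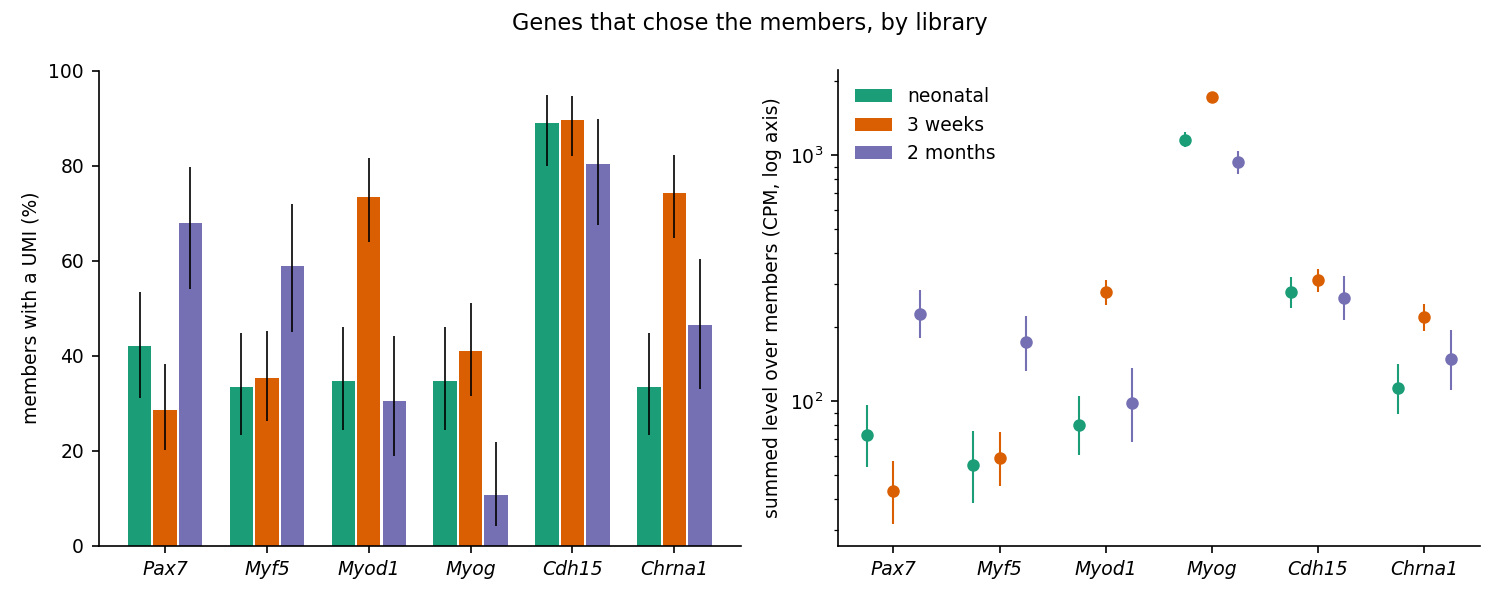
The left panel shows the percent of members with a UMI of each rule gene and the right panel its summed level in CPM on a log axis, by library, with 95% intervals for counting error. Pax7 and Myf5 were most frequent at 2 months (67.9% and 58.9% of members), and Myod1 and Chrna1 at 3 weeks (73.3% and 74.3%).

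Few cells carried the first and the last factor of the sequence together. Pax7 and Myog shared a barcode in 2 of 81 neonatal members, 5 of 105 at 3 weeks and 0 of 56 at 2 months. Cells with Myog made up 34.6% of neonatal members (28 cells, interval 24.3 to 46.0%), 41.0% at 3 weeks (43 cells, 31.5 to 51.0%) and 10.7% at 2 months (6 cells, 4.03 to 21.9%). Cells with Pax7 and without Myog made up 39.5% (32 cells), 23.8% (25 cells) and 67.9% (38 cells). The remaining 21, 37 and 12 members had neither, and were found through Myod1, Myf5, Cdh15 and Chrna1. At 3000 UMIs the Myog-positive share of the members that still met the rule was 45.9%, 48.7% and 7.69%, and the share with Pax7 and without Myog was 29.7%, 11.8% and 59.0%. The 2-month members were thus mostly Pax7 cells at either depth, and their 10.7% of Myog-positive cells lay below the intervals of both younger libraries.

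**Figure D2:**
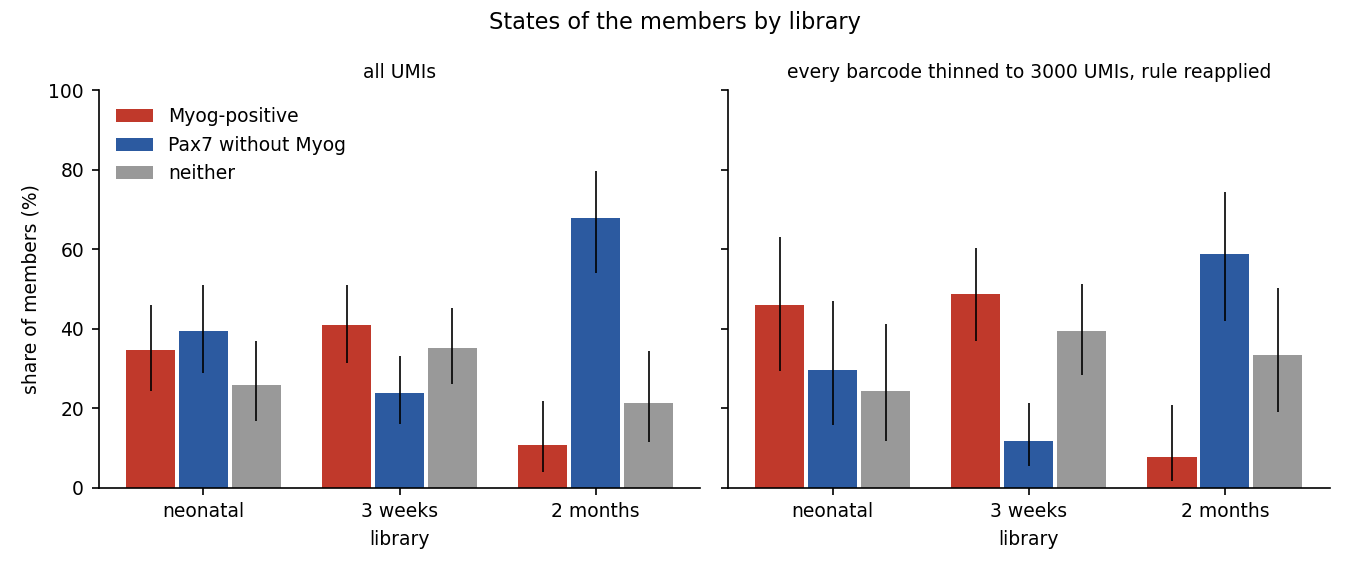
Bars give the share of members in each state by library, from all UMIs on the left and after thinning to 3000 UMIs on the right, with Clopper-Pearson 95% intervals. Myog-positive cells were 34.6%, 41.0% and 10.7% of members in the neonatal, 3-week and 2-month libraries.

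The factors that lie between Pax7 and Myog split unevenly between the states. Myod1 was detected in 39.3% of Myog-positive cells and 15.6% of cells with Pax7 and without Myog in the neonatal library, and in 90.7% and 72.0% at 3 weeks. Myf5 had the opposite order, with 10.7% of Myog-positive cells and 31.3% of cells with Pax7 and without Myog in the neonatal library, and 13.95% and 56.0% at 3 weeks. Chrna1 was detected in 71.4% and 15.6% in the neonatal library and in 95.3% and 36.0% at 3 weeks, Myog-positive cells first. Cdh15 was near equal, at 85.7% and 90.6% in the neonatal library and 95.3% and 84.0% at 3 weeks. These 4 genes also chose the members, so a cell of either state that lacked Pax7 or Myog needed at least 1 of them to enter.

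Myog-positive cells were then compared with cells that had Pax7 and no Myog, within the neonatal library (28 against 32 cells) and within the 3-week library (43 against 25 cells). The 2-month library had 6 Myog-positive cells, fewer than the 15 set as the minimum, and was left out of these counts. A gene was measured when it reached 30 CPM in either state in both libraries, and called when it differed at least 2-fold in the same direction in both. Of 4049 genes measured, 375 (9.26%) were called, 201 higher (4.96%) and 174 lower (4.3%) in Myog-positive cells. Calls in the fusion and contractile lists were all higher, those in the satellite cell list mostly lower and those in the cell cycle list all lower. The states were split on genes of the same cells, so all of this is a description. With TMM factors, a scaling that balances the bulk of genes between profiles, 262 were higher and 142 lower. The call also hides larger single-library counts: 1425 of 4551 genes (31.3%) differed 2-fold in the neonatal library, 18.1% higher and 13.2% lower, and 1343 of 5215 (25.8%) at 3 weeks, 9.99% higher and 15.8% lower.

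The genes of cell fusion and terminal differentiation were the most uniform group. Of 18 measured genes of that list other than Myog, 13 were higher in Myog-positive cells in both libraries and 0 were lower. The median log2 ratio of the list was 2.23, against 0.07 over all measured genes. This median includes Myog, whose own ratio was fixed by the split. Tmem8c, which encodes the fusion protein myomaker, had 397 CPM in Myog-positive cells and 8.07 CPM in cells with Pax7 and without Myog in the neonatal library, and 453 and 7.48 CPM at 3 weeks. Gm7325, which encodes its partner myomixer, had 252 and 0 CPM in the neonatal library and 158 and 0 CPM at 3 weeks. Per cell, 19 of 28 neonatal and 29 of 43 3-week Myog-positive cells carried Tmem8c, and 1 of 32 and 1 of 25 cells with Pax7 and without Myog did. Among members with neither Pax7 nor Myog, 0 of 21 neonatal and 4 of 37 3-week cells carried it. Hes6, a bHLH cofactor that promotes differentiation, had 110.2 and 16.1 CPM in the neonatal library and 106 and 22.4 CPM at 3 weeks. Dll1, a Notch ligand, had 66.9 and 4.03 CPM in the neonatal library and 43.2 and 18.7 CPM at 3 weeks, and its 3-week log2 ratio of 1.21 had an interval of -0.25 to 2.98.

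Contractile genes followed. Of 12 measured genes of the sarcomere list, 8 were higher in Myog-positive cells and 0 were lower. Actc1, the cardiac actin that skeletal muscle makes during development, had 4006 CPM in Myog-positive cells and 8.07 CPM in cells with Pax7 and without Myog in the neonatal library, a log2 ratio of 8.96 with an interval of 7.10 to 12.003 that rests on 2 UMIs in the Pax7 cells and is 8.37 when these are set to the floor of 3 UMIs. At 3 weeks it had 2244 and 0 CPM, a log2 ratio of at least 7.64 against the same floor. Its level varied widely among Myog-positive cells. The median was 2396 CPM in the neonatal library, with a highest cell of 12189 CPM and 3 of 28 cells at 0, and 102 CPM at 3 weeks, with a highest cell of 15285 CPM and 21 of 43 at 0. Skeletal actin Acta1 had 1472 and 32.3 CPM in the neonatal library and 302 and 0 CPM at 3 weeks, and Atp2a1, the calcium pump of fast fibres, had 94.4 and 4.03 CPM, then 307 and 3.74 CPM. Cryab, a small heat shock protein of the sarcomere, had 858 and 278 CPM in the neonatal library and 1037 and 284 CPM at 3 weeks.

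Subunits of the receptor that nerves act on were higher in the same cells. Besides Chrna1, 3 of the 5 measured genes of the acetylcholine receptor and junction list were higher and 0 were lower. The delta subunit Chrnd had 39.4 CPM in Myog-positive cells and 12.1 CPM in cells with Pax7 and without Myog in the neonatal library. The interval of that ratio included equality. At 3 weeks Chrnd had 58.3 and 0 CPM. Chrng, the gamma subunit of the fetal receptor, had 43.3 and 8.07 CPM in the neonatal library and 32.4 and 0 CPM at 3 weeks. Dok7, which activates the receptor-clustering kinase MuSK, had 114 and 0 CPM, then 132 and 7.48 CPM. Among other regulators, Mef2a, a partner of the bHLH factors, had 110.2 and 24.2 CPM in the neonatal library and 125 and 37.4 CPM at 3 weeks. The smooth muscle actin Acta2, which is a marker of mural cells but is also made by differentiating myoblasts, had 2683 and 569 CPM in the neonatal library and 2509 and 688 CPM at 3 weeks. The mural marker Rgs5 was at 0 UMIs in neonatal members and 15.6 CPM over members at 3 weeks. All of the 3-week Rgs5 UMIs lay in Myog-positive cells, as it was at 0 in cells with Pax7 and without Myog and in members with neither. The part of mural transcripts in the Acta2 level was not tested.

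The satellite cell list had the opposite balance of calls. Of 17 measured genes of that list other than Pax7, 6 were lower in Myog-positive cells (Chodl, Notch3, Msc, Vcam1, Tnfrsf12a and Spry1) and 1 was higher (Megf10). Chodl, a membrane lectin, had 43.3 CPM in Myog-positive cells and 641 CPM in cells with Pax7 and without Myog in the neonatal library, and 41.0 and 370.1 CPM at 3 weeks, log2 ratios of -3.89 and -3.17. Of single cells, 8 of 28 Myog-positive cells carried it against 27 of 32 cells with Pax7 and without Myog in the neonatal library, and 12 of 43 against 22 of 25 at 3 weeks. Notch3, a receptor linked to satellite cell quiescence, had 0 and 96.8 CPM in the neonatal library and 6.48 and 71.0 CPM at 3 weeks. Msc, a bHLH repressor that competes with Myod1, had 27.5 and 202 CPM, then 28.1 and 116 CPM. Outside the lists, Gpx3, a secreted glutathione peroxidase, had 0 and 439.6 CPM in the neonatal library and 10.8 and 486 CPM at 3 weeks, although 1 cell held 36.2% of the 3-week UMIs of the Pax7 cells. Isyna1, an inositol synthesis enzyme, and Dbn1, an actin-binding protein, were higher in Myog-positive cells in both libraries, Dbn1 at 338 and 16.1 CPM in the neonatal library and 378 and 37.4 CPM at 3 weeks.

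**Figure D3:**
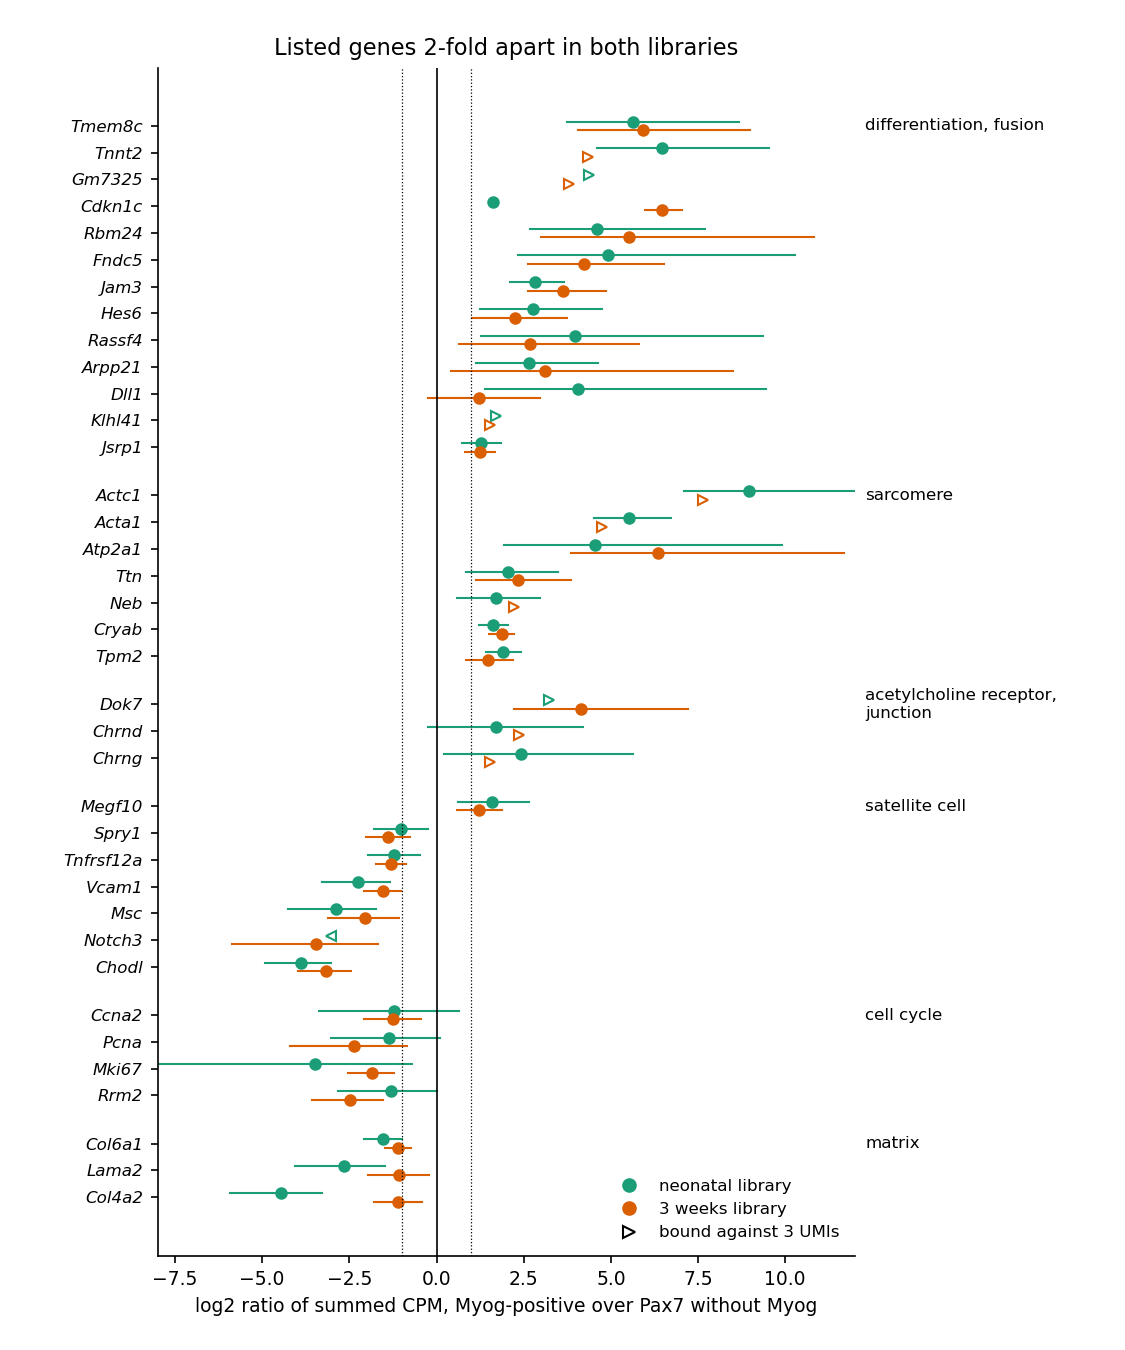
Each row is a gene of 6 lists that differed 2-fold the same way in both libraries; points give the log2 ratio of summed CPM, Myog-positive over Pax7 without Myog, lines the 95% counting interval, open triangles a bound against 3 UMIs, and dotted lines 2-fold. Fusion, sarcomere and receptor genes lie to the right, and cell cycle, matrix and satellite cell genes lie to the left, with the exception of Megf10.

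Promoters of some genes that were higher in Myog-positive cells are shown. The letters marked are those that muscle bHLH factors recognise, and a loose frame of MEF2 sites. Capitals mark CANNTG, the E-box (its form CAGCTG is a subset of it), and CTANNNNTA, the loose MEF2 frame. Both strands of the 200 bases before the gene start were searched. Each N could be any base, which is looser than the A or T of a MEF2 site. The Chrna1 match has C among these letters, so a match to the frame need not be a MEF2 sequence. Sequences are RefSeq, GRCm38.p6, 5′ to 3′ on the gene's strand. Myog lies at chr1:134289804-134290003 (+), Chrna1 at chr2:73580339-73580538 (-), Chrng at chr1:87205611-87205810 (+), and Pax7, shown as the marker of the other state, at chr4:139832969-139833168 (-).
Myog: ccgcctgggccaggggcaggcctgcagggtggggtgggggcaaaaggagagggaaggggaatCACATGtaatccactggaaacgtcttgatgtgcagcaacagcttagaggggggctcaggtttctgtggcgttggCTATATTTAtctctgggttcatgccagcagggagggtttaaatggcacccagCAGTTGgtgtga
Chrna1: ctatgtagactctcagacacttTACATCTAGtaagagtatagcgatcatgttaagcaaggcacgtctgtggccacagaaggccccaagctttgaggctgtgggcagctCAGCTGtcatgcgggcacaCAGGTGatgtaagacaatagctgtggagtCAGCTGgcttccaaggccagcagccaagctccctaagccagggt
Chrng: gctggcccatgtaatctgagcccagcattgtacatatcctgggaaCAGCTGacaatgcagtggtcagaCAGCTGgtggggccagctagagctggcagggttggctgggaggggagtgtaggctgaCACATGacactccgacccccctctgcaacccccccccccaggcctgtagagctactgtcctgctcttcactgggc
Pax7: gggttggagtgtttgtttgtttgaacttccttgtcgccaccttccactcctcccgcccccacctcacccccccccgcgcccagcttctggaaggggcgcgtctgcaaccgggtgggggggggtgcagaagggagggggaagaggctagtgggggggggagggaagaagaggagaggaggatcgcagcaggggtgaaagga
The Myog window held 2 E-boxes and 1 MEF2 frame, the Chrna1 window 3 E-boxes and 1 frame, the Chrng window 3 E-boxes, and the Pax7 window none of these letters. Other windows differed: those of Actc1 and Acta1, both higher in Myog-positive cells, held none of them, and that of Chodl, which was lower, held 3 E-boxes. Of the 25 muscle genes that were called higher in Myog-positive cells (fusion, sarcomere and receptor lists with the rule genes), 17 had a promoter in the table. CANNTG was present in 13 of them (76.5%), CAGCTG in 8 (47.1%) and CTANNNNTA in 6 (35.3%). Among all 32505 promoters the shares were 58.2%, 10.9% and 14.9%. A gene counted when any of its promoter entries held the letters, whereas the 32505 entries were counted singly. The shares of genes and of promoters are therefore in unlike units, which favours the genes. Of 5 satellite cell genes called lower with a promoter, 3 held CANNTG and 0 held either of the others. A match of letters is a description of the window and not a site of binding.

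Cdkn1c, which encodes the cell cycle inhibitor p57 and is transcribed from the maternal chromosome, separated the states by a wider margin at 3 weeks than in the neonatal library. In the neonatal library it had 13008 CPM in Myog-positive cells and 4235 CPM in cells with Pax7 and without Myog, a log2 ratio of 1.62 (interval 1.52 to 1.72). At 3 weeks it had 10650.1 and 119.6 CPM, a log2 ratio of 6.48 (interval 5.98 to 7.03). Every one of the 32 neonatal cells with Pax7 and without Myog carried it, from 719 to 12846 CPM with a median of 3688 CPM. At 3 weeks 12 of 25 such cells did, with a highest value of 688 CPM, and at 2 months 11 of 38, with a highest value of 1226 CPM. Among Myog-positive cells it was found in 27 of 28, 43 of 43 and 6 of 6 cells of the neonatal, 3-week and 2-month libraries, with medians of 12550, 6260 and 9570 CPM. At 3 weeks the lowest Myog-positive cell stood at 434 CPM, so these 2 states overlapped only between 434 and 688 CPM. The level of Cdkn1c in the other kept barcodes was 495, 107 and 53.6 CPM.

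**Figure D4:**
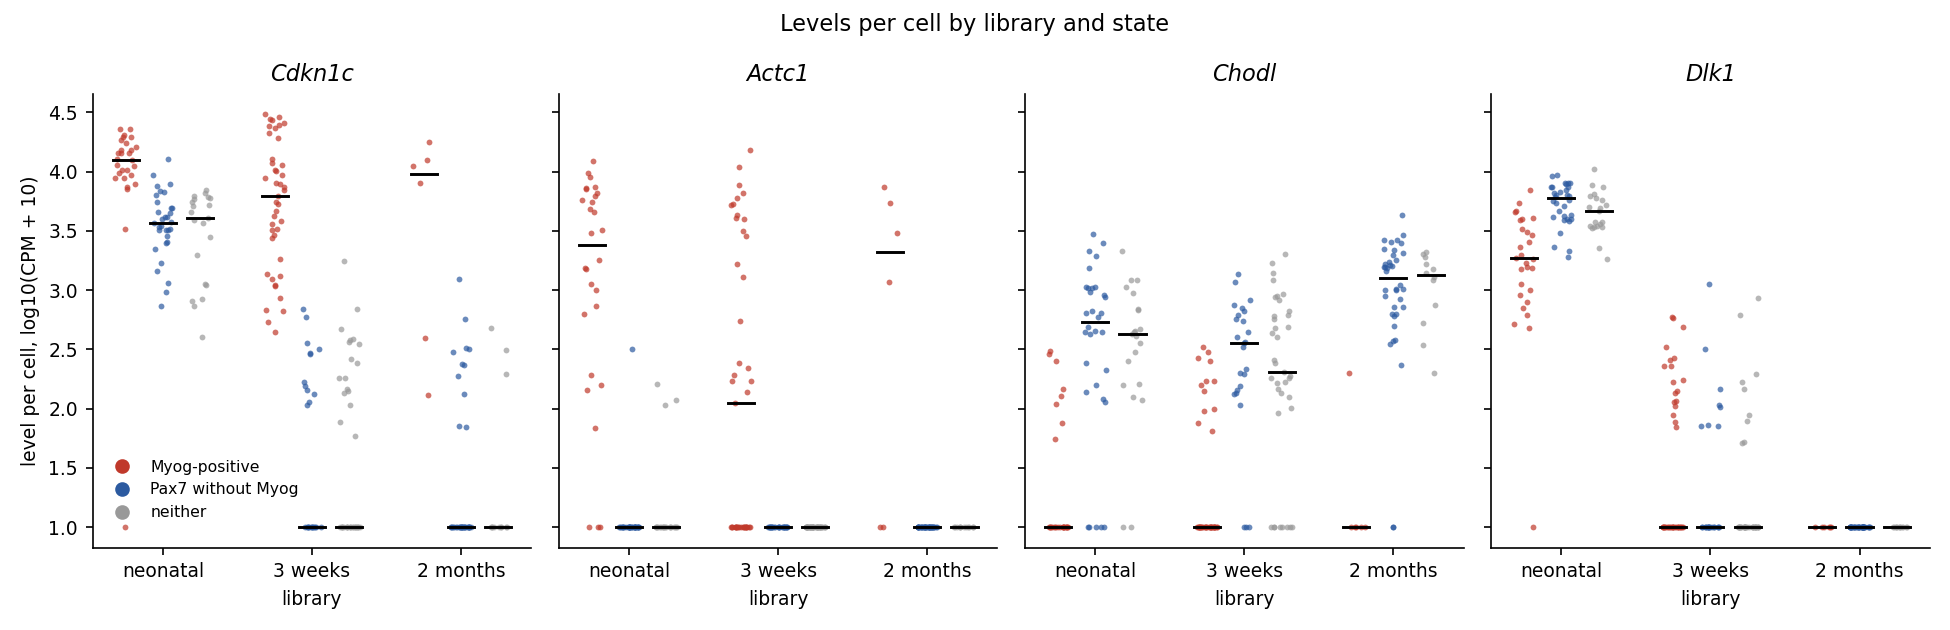
Each point is 1 member, by library and state, on the scale log10(CPM + 10), and black bars are medians. Cdkn1c was present in all 3 states of the neonatal library and mainly in Myog-positive cells later, Actc1 had its high values in Myog-positive cells, Chodl was carried by 8 of 28 neonatal and 12 of 43 3-week Myog-positive cells, against 27 of 32 and 22 of 25 cells with Pax7 and without Myog, and Dlk1 was at 0 in every member at 2 months.

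Cells with mitotic transcripts were more frequent among members than in the rest of the skin at 3 weeks. Counting cells with 2 or more of 6 mitotic genes, members gave 17.3%, 26.7% and 3.57% in the neonatal, 3-week and 2-month libraries, against 10.2%, 7.36% and 2.73% of the other barcodes. After thinning to 3000 UMIs the shares were 6.25%, 20.95% and 4% for members and 5.67%, 4.85% and 1.65% for the others. On this count the neonatal excess was within the interval (2.06 to 13.99%) and the 3-week one was not (13.6 to 29.99%). Within the states at 3 weeks, 16.3% of Myog-positive cells and 44.0% of cells with Pax7 and without Myog met this count, and 11.6% and 36.0% after thinning. In the neonatal library the same shares were 10.7% and 15.6%, and 7.41% and 6.25% after thinning. Of the keratinocytes defined above, 38.6%, 22.1% and 13.6% met this count in the neonatal, 3-week and 2-month libraries. After thinning their shares were 14.9%, 12.4% and 7.77%, so a high share was not particular to members. Of 18 measured cell cycle genes, 4 were lower in Myog-positive cells in both libraries (Mki67, Pcna, Rrm2 and Ccna2) and 0 were higher. Mki67, a protein of dividing nuclei, had 3.94 and 44.4 CPM in the neonatal library and 66.9 and 243 CPM at 3 weeks. The neonatal intervals of Pcna, Rrm2 and Ccna2 included equality.

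Members at 3 weeks were compared with neonatal members gene by gene. Of 4810 genes measured at 30 CPM in either library, 924 (19.2%) differed at least 2-fold, 778 higher (16.2%) and 146 lower (3.04%) at 3 weeks. Calls in the antigen presentation list were all higher, those in the imprinted and growth list were mostly lower, and those in the matrix and cell cycle lists went both ways. The median log2 ratio of all measured genes was 0.34, and it was 0.06 when mitochondrial, ribosomal protein and haemoglobin genes were left out of the totals, so small positive ratios follow the scaling. The split of calls follows it too: 679 were higher and 459 lower with those totals, and 470 higher and 326 lower with TMM factors. The members of the 2 libraries also differed in the mix of states, and values within a state are given beside them.

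Of 22 measured genes of the imprinted and fetal growth list, 10 were lower and 2 were higher at 3 weeks. Dlk1, a paternally expressed membrane protein of fetal tissues, had 79.9 CPM at 3 weeks, against 4005 CPM in neonatal members, a log2 ratio of -5.65 (interval -5.97 to -5.34). It was carried by 80 of 81 neonatal cells, 35 of 105 cells at 3 weeks and 0 of 56 cells at 2 months. Meg3, the noncoding RNA of the same imprinted cluster, had 1679 CPM at 3 weeks, against 7122 CPM in neonatal members. Plagl1, a zinc finger factor of an imprinted growth network, had 73.5 against 391 CPM, and Igf2bp1, a fetal RNA-binding protein, had 0.918 against 34.2 CPM. Igf2, the fetal growth factor, had 104 against 251 CPM, and H19 had 109 against 305 CPM. Cdkn1c summed over members had 4605 against 7388 CPM, a log2 ratio of -0.68 that was not called, while within cells with Pax7 and without Myog it had 119.6 against 4235 CPM, a log2 ratio of -5.15. In the other kept barcodes, where 741 of 5086 genes (14.6%) were called, 8.12% higher and 6.45% lower, 12 of 21 measured genes of the list were lower and 4 higher, and Dlk1 had 44.0 against 1622 CPM there. When neonatal members were limited to the 24 cells with a Y-linked UMI and no Xist, the log2 ratios were -5.68 for Dlk1, -1.89 for Meg3, 3.47 for H2-K1 (described next) and 3.20 for the satellite cell gene Asb5. Of the named genes' ratios, 39 stayed past 2-fold with those cells and 7 did not, at -0.92 for Arpp21, -0.86 for Tnnt2, 0.86 for Id2, 0.87 for Rapsn, 0.90 for Snai2, 0.64 for Stmn1 and 0.48 for Zeb1.

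Antigen presentation genes were higher at 3 weeks in 7 of 11 measured genes of that list, with 0 lower. H2-K1, a class I histocompatibility chain, had 289 CPM at 3 weeks, against 17.9 CPM in neonatal members, and was carried by 83 of 105 and 10 of 81 cells. H2-D1 had 275 against 52.1 CPM. In the other barcodes 9 of 14 were higher and 0 lower, with H2-K1 at 843 against 96.2 CPM. Within the 3-week library H2-K1 was lower in Myog-positive cells than in cells with Pax7 and without Myog, at 145 and 419 CPM, and in the neonatal library it had 3.94 and 32.3 CPM.

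Mitotic genes were higher and replication genes lower at 3 weeks, 13 and 5 of the 26 measured cell cycle genes. Ube2c, which feeds the anaphase ubiquitin ligase, had 399 CPM at 3 weeks, against 52.1 CPM in neonatal members, where 1 cell held 51.4% of its UMIs. Cenpf had 139 against 13.4 CPM and Tpx2 94.6 against 7.44 CPM. The genes that were lower were the replication helicase genes Mcm2, Mcm3, Mcm5 and Mcm6 and the S-phase cyclin Ccne1, with Ccne1 at 21.1 against 134 CPM. In the other kept barcodes 0 of 15 measured genes of the list were higher and 2 were lower, with Ube2c at 69.7 against 41.7 CPM. Within cells with Pax7 and without Myog, where 1725 of 4910 genes (35.1%) were called, 28.8% higher and 6.31% lower, 18 of 28 were higher and 2 lower.

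Of 21 measured satellite cell genes, 4 were higher at 3 weeks and 0 lower, a share near the 16.2% of all measured genes that were higher. Within cells with Pax7 and without Myog 5 of 21 were higher and 0 lower, where 28.8% of all genes were higher. The rule gene Pax7 is among the 21 genes in both counts and was not called in either. Asb5, a substrate adaptor of ubiquitin ligases, had 143 CPM at 3 weeks, against 19.4 CPM in neonatal members, and was carried by 63 of 105 and 10 of 81 cells. Heyl, a Notch target, had 87.2 against 13.4 CPM, Sdc4 had 364 against 149 CPM and Cd82 had 720 against 344 CPM. Des, the muscle intermediate filament, had 498 against 226 CPM. Within Myog-positive cells, where 1186 of 4890 genes (24.3%) were called, 17.1% higher and 7.12% lower, 7 of 17 satellite cell genes were higher at 3 weeks and 0 lower. Of 20 measured sarcomere genes 12 were lower at 3 weeks and 3 higher, but for several of them 1 neonatal cell held nearly all UMIs: 94.9% for Myl1, 90.0% for Ckm and 87.8% for Mylpf. For Tnnt1 no single cell did, and it had 58.8 CPM at 3 weeks, against 150 CPM in neonatal members.

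Matrix genes went both ways at 3 weeks. Of 27 measured, 10 were higher and 7 lower than in neonatal members, and all 6 measured fibroblast markers were higher. Col1a1 had 7008 CPM at 3 weeks, against 409 CPM in neonatal members, with 21.5% and 53.1% of its UMIs in 1 cell, and Dcn had 1633 against 183 CPM. Col5a3, a minor fibrillar collagen, had 115 against 7.44 CPM, with 8.80% in the top 3-week cell. The basement membrane genes Lamb1, Col4a1 and Col4a2 were lower, with Lamb1 at 38.6 against 165 CPM. In the other barcodes Col1a1 had 36513 against 9923 CPM, and the part of transcripts from neighbouring fibroblasts in the members' collagen was not tested.

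Members at 2 months were set against those at 3 weeks in the same way. Of 5314 genes measured, 1033 (19.4%) differed at least 2-fold, 572 higher (10.8%) and 461 lower (8.68%) at 2 months. Calls in the satellite cell and immediate-early lists were all higher, and those in the cell cycle list all lower. The state mix differed here too, since 38 of 56 members at 2 months had Pax7 and no Myog, so each group is also given within those cells, where 1705 of 5518 genes (30.9%) were called, 14.8% higher and 16.1% lower.

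Of 24 measured satellite cell genes, 10 were higher at 2 months and 0 lower, and within cells with Pax7 and without Myog 11 of 25 were higher and 0 lower. Pax7, which chose the members and the state, is among the higher genes in both counts. Chodl had 853 CPM at 2 months, against 218 CPM at 3 weeks, Spry1, an inhibitor of receptor tyrosine kinase signalling that quiescent satellite cells express, had 497 against 142 CPM, and Sdc4, a heparan sulfate proteoglycan of their surface, had 957 against 364 CPM. Within cells with Pax7 and without Myog the values were 1070.0 against 370.1 CPM for Chodl, 608 against 213 CPM for Spry1 and 1105 against 422 CPM for Sdc4. Pax7 itself had 360 against 157 CPM and Myf5 222 against 89.7 CPM in those cells, while Myod1 had 71.0 against 239 CPM. The Pax7 levels came from 81 UMIs in 38 cells and 42 UMIs in 25 cells. Each of these cells had to carry a Pax7 UMI, and 1 UMI gives a higher CPM in a shallower cell. Median depths were 4089 UMIs at 2 months and 10177 UMIs at 3 weeks, so the levels of these rule genes are a description only. Pax3, the paralogue of Pax7, had 42.1 CPM in all members at 2 months, against 4.59 CPM, with 40.0% in 1 cell. In the other barcodes 0 of 11 satellite cell genes were higher and 1 was lower.

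Cell cycle genes were lower at 2 months in 13 of 23 measured, with 0 higher, and within cells with Pax7 and without Myog in 22 of 26, with 0 higher. Ube2c had 58.9 CPM at 2 months, against 399 CPM at 3 weeks, Cenpa, the centromere histone, had 25.3 against 194 CPM, and Ccnb2, a mitotic cyclin, had 19.6 against 128 CPM. A single 2-month cell held 66.7% of Ube2c and Cenpa UMIs. In the other barcodes 5 of 11 were lower and 0 higher. Nes, an intermediate filament protein, had 22.4 against 116 CPM.

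Immediate-early and heat shock genes, which are known to be induced when tissue is digested, were higher at 2 months in 20 of 24, with 0 lower. Egr1, an early growth response factor, had 3501 CPM at 2 months, against 449.9 CPM at 3 weeks, in 54 of 56 and 75 of 105 cells. Fosb had 1170 against 179 CPM, Jund 4914 against 1597 CPM and the chaperone gene Hspa1a 5114 against 1301 CPM. In the other kept barcodes of the same libraries, where 4.35% of 4777 genes were called, 2.24% higher and 2.11% lower, 0 of the 24 were higher or lower, with Egr1 at 1551 against 933 CPM and Hspa1a at 3820 against 4071 CPM. Within cells with Pax7 and without Myog 13 of 24 were higher. At 3 weeks 10 of 24 had been higher and 1 lower than in neonatal members, with Hspa1a at 1301 against 182 CPM, and in the other barcodes 6 were higher. The part of the digestion in these values was not tested. Among the inhibitors of bHLH factors, Id3 had 1655 CPM at 2 months, against 387 CPM at 3 weeks, was carried by 55 of 56 and 78 of 105 cells, and had 1980 against 505 CPM within cells with Pax7 and without Myog. Hes1, a Notch target, had 92.6 against 29.4 CPM.

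**Figure D5:**
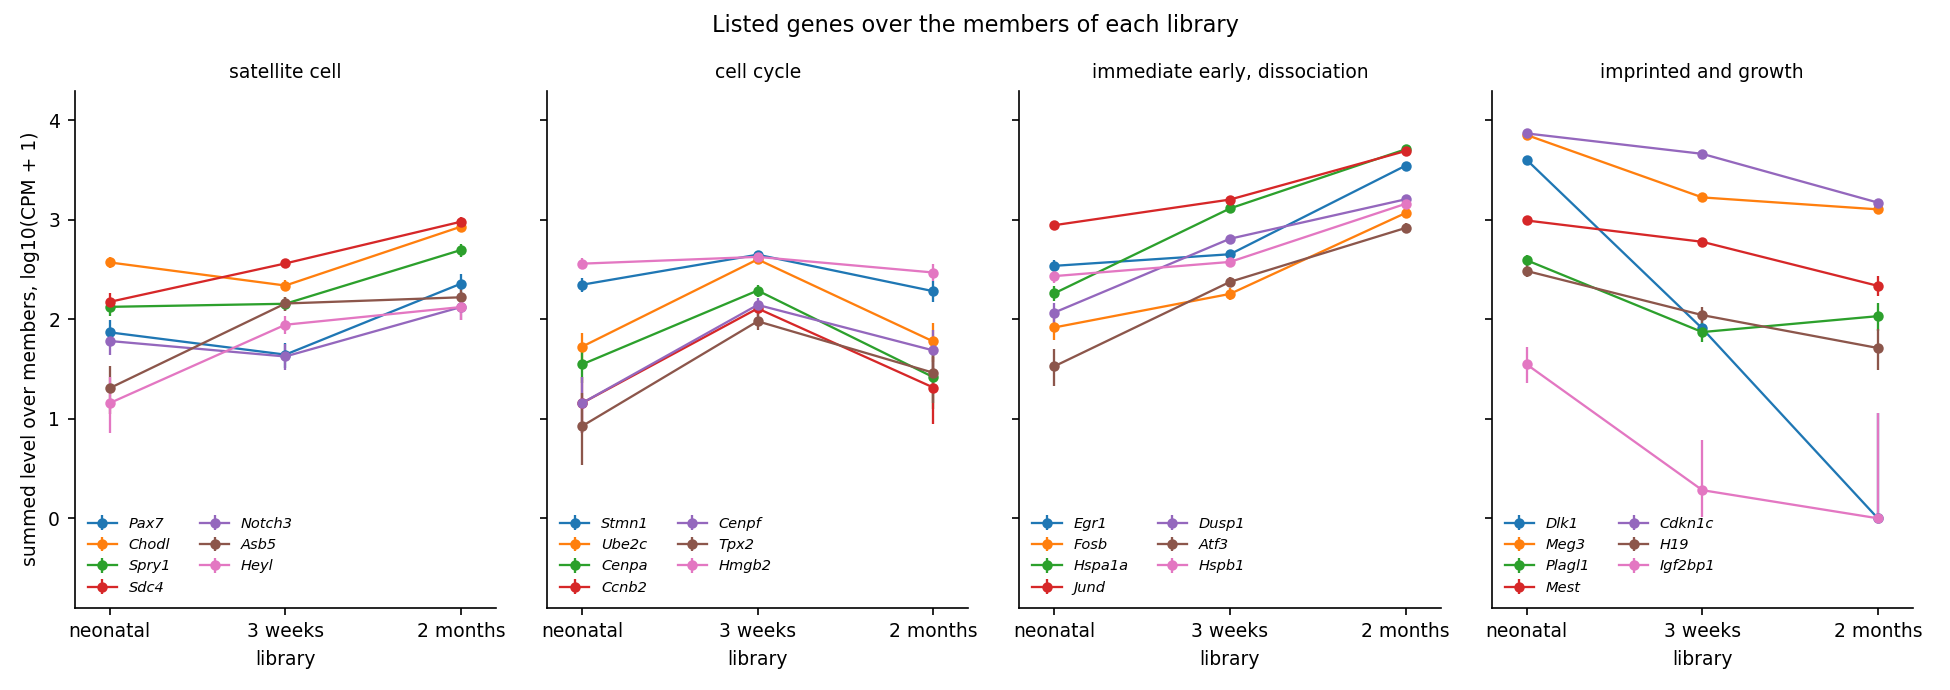
Lines join the summed level over members of each library, log10(CPM + 1), for named genes of 4 lists, with 95% counting intervals. Satellite cell and immediate-early genes stood highest at 2 months, mitotic genes at 3 weeks, and Dlk1, Meg3 and Igf2bp1 in the neonatal library.

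Of 18 measured imprinted and growth genes, 6 were lower and 3 higher at 2 months than at 3 weeks, and within cells with Pax7 and without Myog 5 of 19 were lower and 3 higher. Dlk1 was at 0 UMIs at 2 months, against 79.9 CPM at 3 weeks, and Mest, a paternally expressed hydrolase, had 216 against 600.4 CPM. Cdkn1c had 1489 against 4605 CPM over all members, but 97.7 against 119.6 CPM within cells with Pax7 and without Myog, which was not called. The 6 Myog-positive cells of the 2-month library resembled the younger ones in some of the few genes that 6 cells can show, without a call. Of these 6, 5 carried Tmem8c, 4 carried Actc1 and 6 carried Acta2, while 1 carried Chodl and 0 carried Pax7. Gpx3 was unlike, carried by 3 of the 6 against 0 of 28 neonatal and 2 of 43 3-week Myog-positive cells. The keratinocyte list summed to 5661 CPM in the 6 cells, with 97.6% of Krt10 and 100% of Krt1 UMIs in 1 cell.

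Against the other barcodes of their library, members had 2-fold higher levels for 371 genes (7.4%) and lower levels for 1148 (22.9%) of 5014 in the neonatal library, 30.3% in all. At 3 weeks 919 (17%) were higher and 896 (16.6%) lower of 5396, 33.6% in all. At 2 months 750 (13.8%) were higher and 767 (14.1%) lower of 5441, 27.9% in all. The rule used these cells, so the counts are a description. Msc, Megf10 and Jsrp1, a protein of the calcium release machinery, were nearly limited to members: Jsrp1 had 229, 336 and 210.4 CPM in members of the neonatal, 3-week and 2-month libraries, against 1.33, 0.471 and 0.292 CPM elsewhere. Sdc4 was not, at 149, 364 and 957 CPM in members against 161, 366 and 583 CPM elsewhere. Matrix genes were lower in members for 20 of 28, 17 of 25 and 12 of 24 measured genes. Immediate-early genes were lower in members for 19 of 24 in the neonatal library and 18 of 24 at 3 weeks, and for 2 of 24 at 2 months.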

How the data were processed

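Raw UMI counts per gene and barcode were deposited by the authors as whole numbers, 27998 genes by Ensembl identifier and symbol in each of 3 libraries. Per the submitters' processing notes, the tools were Cell Ranger 3.0.2 and Seurat 2.0 and the build was mm10; per the labels' protocols, libraries came from a Chromium 3' kit. Barcodes were kept with at least 300 genes and 500 UMIs, and with no more than 10% of UMIs from mitochondrial genes. Doublets were marked with Scrublet (scanpy 1.11.5) and kept, leaving them out being an alternative; 2, 1 and 1 members were marked in the neonatal, 3-week and 2-month libraries. In the neonatal library its threshold marked 0.0379% of barcodes, so the 6% with the highest score were taken. Clustering used 2000 variable genes, 30 components, 15 neighbours and Leiden resolution 1 (leidenalg 0.10.2).

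Counts were summed over cells and scaled to CPM over all genes, without a length correction. A gene was measured at 30 CPM in either group and called at 2-fold; a count under 3 was set to 3 for the call. Per-cell levels are CPM of that cell. No test was made, as there is 1 library per age and the states were split on genes of the same cells; edgeR 4.0.16 gave TMM factors for an alternative. The scripts were tested on simulated data.

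The 6 rule genes, 22 gene lists (344 genes found) and comparisons were chosen with earlier results of these data known. Genes named are the rule genes, up to 4 per list with the largest log2 ratios and 2 with the highest levels, and outside the lists the 5 highest and 5 lowest ratios among genes at 100 CPM or more in 10% of cells. Cdkn1c, Actc1, Chodl, Dlk1 and other listed genes given cell by cell, the 2-month Myog-positive cells and the genes against other barcodes were chosen after values were seen. Some genes that met these rules are counted but not reported by name here. Thinning used 3000 UMIs and a fixed seed. Promoter windows are the 200 bases before the start in RefSeq, GRCm38.p6.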

Additional observations from a re-analysis of the deposited data

Results flagged for a closer look

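Of the listed and named genes, 5 moved in opposite directions between the states in the 2 libraries. The difference between libraries was not tested, and values are log2 ratios of summed CPM, Myog-positive over Pax7 without Myog. Col6a3, a chain of type VI collagen, stood at 4.13 in the neonatal library, from 18 UMIs in 1 Myog-positive cell and 1 UMI in the Pax7 cells, and at -1.08 at 3 weeks. Fos, an immediate-early factor, stood at 1.45 in the neonatal library and -1.30 at 3 weeks. Igfbp3, which binds insulin-like growth factors, stood at -1.27 in the neonatal library and 2.56 at 3 weeks. The haemoglobin genes stood at 2.55 (Hba-a1) and 1.70 (Hbb-bs) in the neonatal library and at -2.96 and -3.74 at 3 weeks. In the neonatal library these rested on 12 and 2 UMIs of Hba-a1 and 10 and 3 UMIs of Hbb-bs, in Myog-positive cells and in cells with Pax7 and without Myog. At 3 weeks 1 cell held 98.2% of the Hba-a1 and 94.5% of the Hbb-bs UMIs of the Myog-positive cells. Of the 25 cells with Pax7 and without Myog, 4 carried Hba-a1 and 10 carried Hbb-bs. There 1 cell held 57.5% of the Hba-a1 UMIs, and 54.5% of the Hbb-bs UMIs were in 1 cell.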

How the results depend on the processing

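Each age has 1 library, so no replicate could be left out. No paired analysis was possible because each age is 1 library; the states were compared within each of 2 libraries and not tested, since they were split on genes of the same cells. Over 127 log2 ratios of named genes and 12 alternatives, each run on the 33 to 127 ratios it bears on, 1246 values kept their direction and their side of 2-fold, 54 moved across it and 3 changed sign. With at least 3 rule genes the values of "members per library: neonatal, percent", "members per library: 3 weeks, percent" and "members per library: 2 months, percent" were 0.468%, 0.921% and 0.375%; "state shares: Myog-positive, neonatal, percent" and "state shares: Myog-positive, 3 weeks, percent" were 56.8% and 52.4%; and "Myog-positive against Pax7 without Myog: genes higher" and "Myog-positive against Pax7 without Myog: genes lower" were 520 and 991, since only the 3-week library kept 15 cells of each state. Thinning to 1500 UMIs gave 0.307%, 0.536% and 0.347% for "members per library: neonatal, percent at equal depth", "members per library: 3 weeks, percent at equal depth" and "members per library: 2 months, percent at equal depth". For "3 weeks against neonatal: genes higher" and "3 weeks against neonatal: genes lower" a 10 CPM minimum gave 1738 and 424, TMM scaling 470 and 326, and cells with Pax7 and without Myog, added after seeing the data, 1415 and 310. The lower count was 459 with totals free of mitochondrial, ribosomal and haemoglobin genes, and 255 with neonatal members limited to Y-linked UMIs and no Xist, also added later. For "2 months against 3 weeks: genes higher" and "2 months against 3 weeks: genes lower" a 10 CPM minimum gave 1325 and 750; the lower count was 701 with the reduced totals and 888 in cells with Pax7 and without Myog. Signs changed for "2 months against 3 weeks: Krt5 log2 ratio" (-0.85 without marked doublets, -2.64 in 1 cluster) and "2 months against 3 weeks: Krt15 log2 ratio" (-2.51 in 1 cluster), genes of which 1 cell held 94.9 to 97.5% of the 2-month UMIs. Other causes were not tested. Cell number limits the 2-month Myog-positive cells, at 6 cells with a median of 10249 UMIs, and depth the other 2-month members, at medians of 4089 UMIs with Pax7 and without Myog and 3912.5 UMIs with neither.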
